A study of Mus musculus with 39 samples.

Results

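Microarray signals of fat depot cell preparations were compared between the arrays whose titles carry the token BA, BA1 or BAT and the other arrays of the same weeks. The titled arrays were the 5 microgram KAL group (HF5) and the high fat control (HFC) at Week 9, the low fat control (LFC) and HF20 at Week 12, HF5 and HF75 at Week 15, and LFC at Week 18. They made up 7 of the 20 arrays of Weeks 9, 12, 15 and 18, and the series holds 39 arrays. All 20 arrays carried the same tissue label, macrophages infiltrating brown fat taken as stromal vascular cells, and no label used here gave the meaning of the tokens. The groups are therefore called titled arrays and other arrays below.

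C57BL/6J mice entered the study at 3 to 4 weeks of age. LFC mice ate a diet with 10% of calories from fat, and HFC mice a high fat, high sucrose diet with 60%. HF5, HF20 and HF75 mice ate the HFC diet with 5, 20 or 75 µg of the KAL formulation. Each array held 1 diet at 1 week and 1 dye, and the labels did not say which animals contributed to it, so p-values measured the spread between these arrays only. Every titled array differed from the other arrays of its week in diet or dose as well as in title, and each diet held both titled and other arrays over the 4 weeks. The characteristics of the titled HF20 array of Week 12 named the high fat diet without KAL, whereas its title and source named HF20.

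Brown adipose tissue burns fatty acids for heat in mitochondria-rich fat cells that hold many small lipid droplets. Digestion of the tissue followed by centrifugation parts floating fat cells from a stromal vascular pellet, which holds macrophages, lymphocytes, granulocytes, endothelial cells, fibroblasts and fat cell precursors. Tissue digestion is also known to induce immediate early genes such as Fos and Egr1.

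The titled and other arrays differed in brightness before any gene was considered. The 75th percentile of the processed signal, by which each array was scaled, ran from 310 to 1289 on titled arrays, with a median of 872. On other arrays it ran from 18.1 to 3974, with a median of 48.8. Spots well above background made up 49.4 to 74.4% of titled arrays and 31.2 to 98.0% of other arrays. The lowest signal that could be told from background lay 5.59 to 6.99 log2 units below the 75th percentile on titled arrays and 0.83 to 6.36 units below it on other arrays. Saturated spots made up 0.285 to 2.57% of titled arrays and 0.00685 to 1.32% of other arrays. Outlier-flagged spots, which were left out, reached 71.4% on HF20 Week 15, 18.6% on HF5 Week 12 and 11.1% on HFC Week 12, all other arrays, and at most 0.516% on titled arrays. A gene below therefore rests on 6 or 7 titled and 10 to 13 other arrays.

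The title therefore moved with the usable signal range. The counts of list members called were repeated with every value limited to the range that all 20 arrays could measure, from -0.83 to 3.91 on the log2 scale relative to the 75th percentile. Beyond that, the part of brightness in the results was not tested. Of the other arrays, HFC Week 12, with a 75th percentile of 950, and HF20 Week 15, with 3974, were as bright as titled arrays or brighter. Their mean log2 levels over general adipocyte genes were 2.14 and 0.37, where titled arrays ran from 4.59 to 5.76, and over neutrophil genes -1.67 and 0.58, where titled arrays ran from -5.16 to -2.91. Over immediate early genes they were 4.90 and 1.96, and the second lay inside the titled range of 0.16 to 2.85. Both arrays had over 10% of spots flagged, and HFC Week 12 also had the highest mesothelial level of the 20, 0.85, where HF20 Week 15 was next at -1.98.

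Both kinds of marker were found in both groups, since Adipoq, of fat cells, and Emr1, of macrophages, were well above background on all 20 arrays. Stromal vascular cells are prepared so as to hold few mature fat cells, and whether the shared tissue label is right for the titled arrays could not be settled from the labels.

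**Figure D1:**
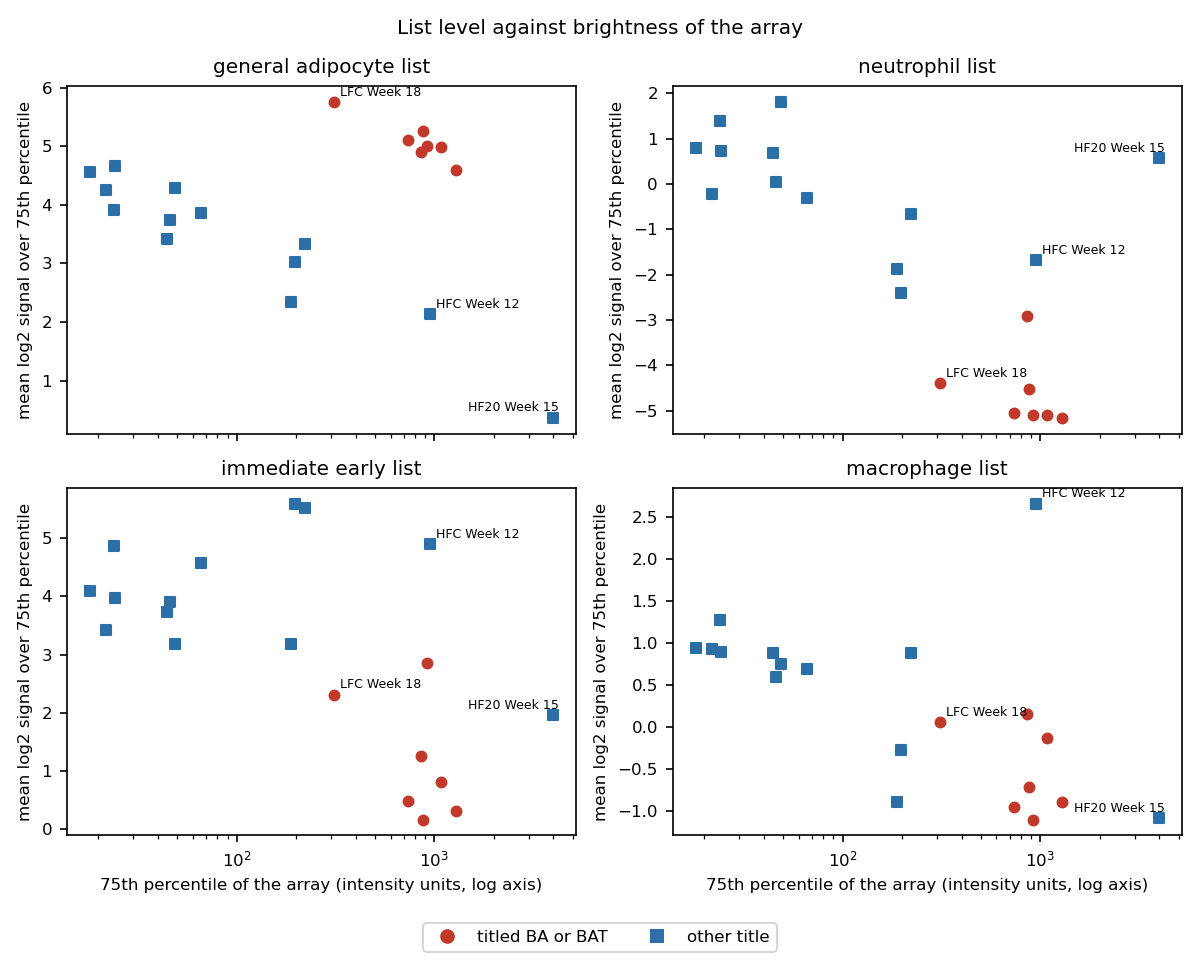
Mean log2 level of the general adipocyte, neutrophil, immediate early and macrophage lists (y axis, relative to the 75th percentile of each array) against the 75th percentile of the processed signal (x axis, log scale), 1 point per array, titled and other arrays in separate colours. HFC Week 12 (75th percentile 950) and HF20 Week 15 (3974) are the other arrays as bright as titled ones, and both lie below the titled arrays in the adipocyte panel (2.14 and 0.37), while in the immediate early panel 1 lies above them (4.90) and 1 among them (1.96).

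Of 27879 probes tested with week as a block, 14284 (51.2%) differed between titled and other arrays at an adjusted p under 0.05 (limma). Of all tested, 6942 (24.9%) were higher and 7342 (26.3%) lower on titled arrays, and the median difference over all probes was -0.01. With 1 probe for each of 20205 genes, 4985 (24.7%) were higher and 5768 (28.5%) lower. Limited to the range all 20 arrays measured, 3511 genes (17.4%) were higher and 1150 (5.69%) lower. These shares moved with the scaling, since 40.9% of probes were higher and 12.9% lower with each array centred on its median, and 28.6% higher and 11.7% lower with quantile normalization. The list counts below are to be read against these shares. In bulk samples such as these, fewer cells of a type and less RNA per cell cannot be told apart.

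Fat cell and lipid metabolism genes lay on the higher side and leukocyte and immediate early genes on the lower side. The 9 lists with a median above 0, of 27 compared, were general adipocyte, brown adipocyte, lipogenesis, sterol synthesis, triglyceride storage, fatty acid oxidation, respiratory chain, skeletal muscle and smooth muscle genes. The smooth muscle list did so only by 0.08, and its called members were all lower. The other 18 lists had medians below 0, from -0.61 for cell cycle genes to -4.39 for neutrophil genes. In the shared range most medians shrank, to 0.90 for lipogenesis, 0.54 for general adipocyte, -0.70 for neutrophil and -1.49 for immediate early genes, and that of smooth muscle turned to -0.25.

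**Figure D2:**
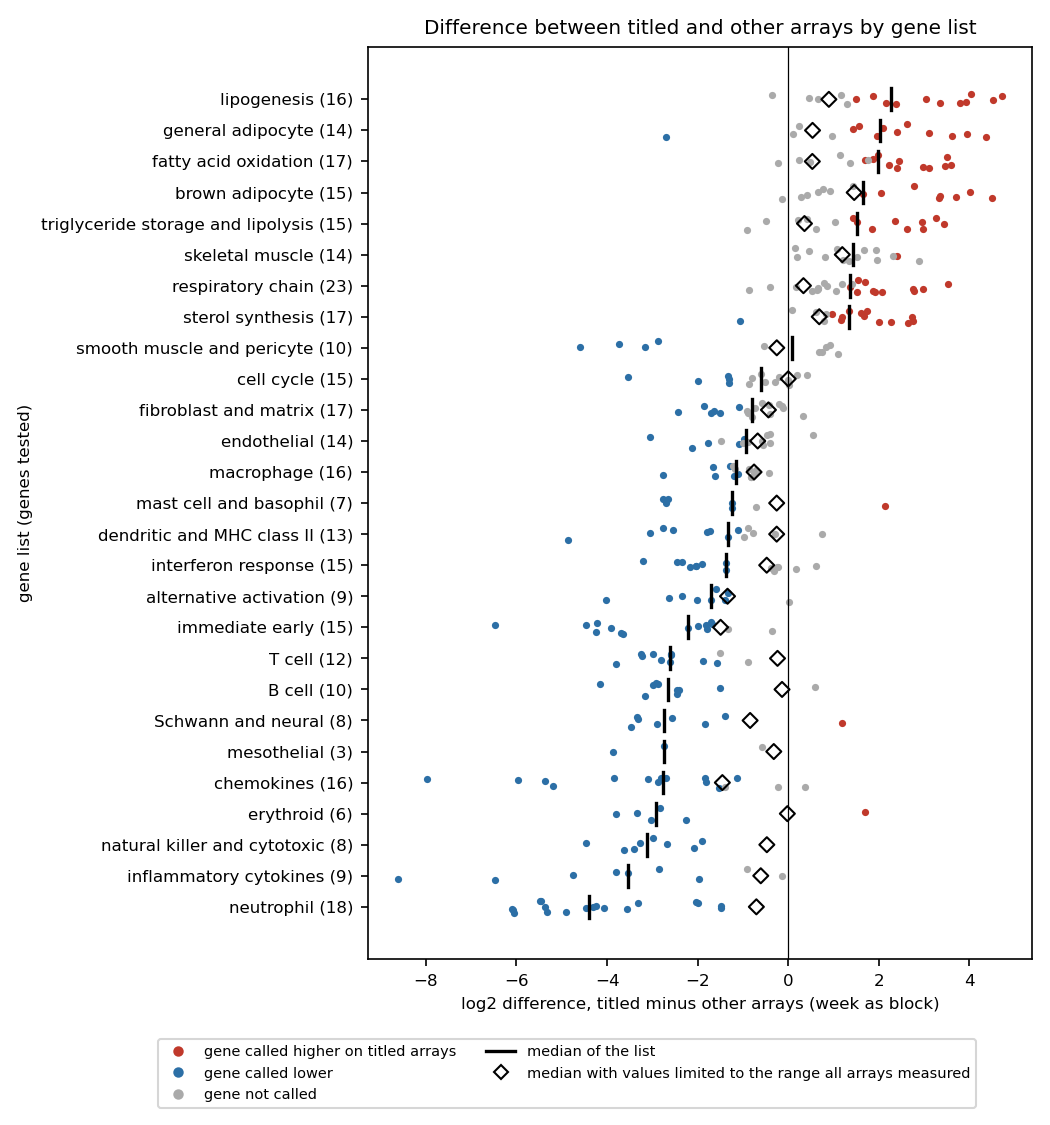
Log2 difference of each list member (x axis, titled minus other, 7 against 13 arrays, week as a block) by gene list (y axis, number of genes tested in brackets), 1 point per gene, coloured by call; bars mark list medians and diamonds the medians in the range all 20 arrays measured. The lipogenesis median lies at 2.27 and the neutrophil median at -4.39, and in the shared range they lie at 0.90 and -0.70.

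General adipocyte genes were higher on titled arrays for 10 of 14 members and lower for 1, with a median difference of 2.02. Lipe, which encodes hormone-sensitive lipase, measured 2.95, 3.55 and 4.23 as lowest, median and highest log2 level on titled arrays. On other arrays it measured -1.28, 0.48 and 1.83, with 11 of the 13 arrays holding a usable spot. No other array reached the titled arrays, and the difference was 3.11 (SE 0.39, adjusted p = 4.78e-06, limma), or 8.64-fold.

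Cebpa, a transcription factor of fat cell differentiation, ran from 3.32 through 3.76 to 4.68 on titled arrays and from -3.66 through 0.86 to 2.19 on other arrays. The groups did not overlap, and the difference was 3.63 (SE 0.49, adjusted p = 6.98e-06, limma). Of the genes by 1 probe, 2049 (10.1%) had all titled arrays above all other arrays. The list held 5 such genes among its 14.

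Plin1, which encodes the perilipin that coats lipid droplets, ran from 5.71 through 6.12 to 9.68 on titled arrays and from -1.49 through 2.51 to 4.25 on other arrays. All titled arrays lay above all others, by a fitted 4.36, although 5 titled spots were saturated. Adipoq, the adiponectin gene, was higher by 2.62 with 6 titled spots saturated. Limited to the shared range it was higher by 0.60 (adjusted p = 0.22, limma) and no longer called. Lep, the leptin gene, spread widely on titled arrays, from -2.66 through 0.37 to 3.16, and lay between -5.38 and -2.15 on other arrays, 4 of which were well above background.

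Fabp4, a fatty acid carrier of fat cells and macrophages, was the only general adipocyte gene called lower, at a difference of -2.70. Its spot was saturated on all 7 titled arrays and on 5 other arrays, so the direction was not settled, and a second probe differed by 1.27 without being called. Car3, Cfd and Cidec were not called, but their spots were saturated on 6, 5 and 7 of the 7 titled arrays and on no other array, which caps their differences of 0.10, 0.23 and 0.96. Limited to the shared range, 5 of the 14 genes were higher, namely Retn, Lipe, Cebpa, Lep and Plin1.

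The promoter of Plin1, shown because the gene had the highest fold of the list and 2 C/EBP-type matches, held these 250 bases upstream of its start (RefSeq, GRCm38.p6, chr7:79732777-79733026, minus strand, written along the gene). Capitals mark TTGCNNAA, searched on both strands. Of the 11 general adipocyte genes with a RefSeq promoter, Plin1 and Lep held it (18.2%), against 9.55% of all 27025 promoters.
Plin1: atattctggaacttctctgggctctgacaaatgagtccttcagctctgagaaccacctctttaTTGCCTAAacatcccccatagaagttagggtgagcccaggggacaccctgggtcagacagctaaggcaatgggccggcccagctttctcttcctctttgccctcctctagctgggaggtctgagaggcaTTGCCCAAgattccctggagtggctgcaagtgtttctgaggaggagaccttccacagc

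**Figure D3:**
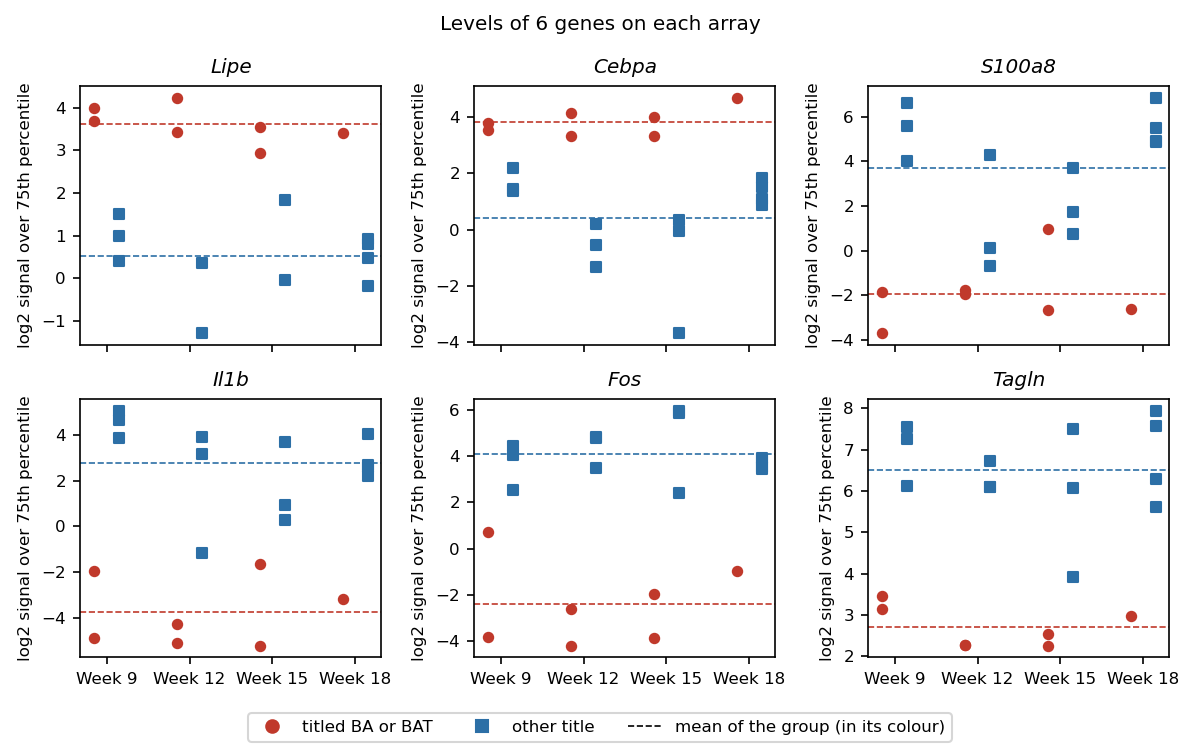
Log2 level relative to the 75th percentile (y axis) of Lipe, Cebpa, S100a8, Il1b, Fos and Tagln by week (x axis), 1 point per array, titled and other arrays in separate colours. Lipe and Cebpa lie higher and Il1b, Fos and Tagln lower on every titled array than on every other array, while S100a8 overlaps between -0.71 and 0.95.

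Brown adipocyte genes were higher for 8 of 15 members and lower for none, with a median difference of 1.66, and the same number was higher in the shared range. Adrb3, the beta-3 adrenergic receptor through which noradrenaline acts on fat cells, ran from 5.22 through 5.76 to 6.39 on titled arrays and from 0.38 through 1.93 to 3.02 on other arrays. The groups did not overlap, and the difference was 4.02 (SE 0.37, adjusted p = 9.73e-08, limma), with 4 titled spots saturated. Ppargc1a, a coactivator of mitochondrial genes, ran from 2.38 through 2.64 to 3.09 against -1.61 through -0.05 to 1.35. It too showed no overlap, at a difference of 2.77 (SE 0.38, adjusted p = 7.99e-06, limma).

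Cpt1b, the muscle and brown fat form of the mitochondrial fatty acid importer, was higher by 3.71. Pank1, an enzyme of coenzyme A synthesis, was higher by 3.35, and Dio2, which activates thyroid hormone, by 3.32. Ebf2, a transcription factor of brown precursors, and Gyk, glycerol kinase, were higher by 2.04 and 1.66. The markers that name brown fat most directly were not called at their brightest probes, where saturation on titled arrays capped any rise. Ucp1, the uncoupling protein, differed by 0.28 (adjusted p = 0.84, limma), with 6 titled spots saturated. Cidea, saturated on all 7 titled arrays, differed by -0.13 and has no settled direction.

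A dimmer Ucp1 probe, with 1 saturated titled spot, ran from 3.94 through 5.58 to 6.19 on titled arrays and from 2.46 through 3.66 to 5.68 on other arrays. The ranges overlapped, and this probe was higher by 1.54 (SE 0.42, adjusted p = 0.0054, limma). The brighter probe was well above background on all 20 arrays and the dimmer one on all 7 titled and 11 other arrays. Prdm16, a brown fat regulator, and Zic1 differed by 0.93 (adjusted p = 0.052, limma) and 0.66 and were not called. Cox8b and Cox7a1 were not called either, at 0.77 and 0.40, with 6 and 7 titled spots saturated. On HFC Week 12 the brown list had a mean level of -2.39, with Ucp1 at -3.18 and Cidea at -0.29, the lowest value of each over the 20 arrays.

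Lipogenic genes were higher for 11 of 16 members and lower for none, at a median of 2.27, and 7 were higher in the shared range. Dgat1, which joins the last fatty acid to triglyceride, ran from 2.61 through 3.18 to 3.79 on titled arrays and from -0.97 through -0.31 to 1.14 on other arrays. The groups did not overlap, and the difference was 3.36 (SE 0.33, adjusted p = 3.43e-07, limma). Mlxipl, the carbohydrate-responsive transcription factor ChREBP, ran from 3.77 through 4.91 to 5.40 against -1.40 through -0.02 to 2.08, a difference of 4.52. Srebf1, the sterol regulatory factor of lipogenic genes, was higher by 3.04.

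Agpat2 and Gpam, acyltransferases of glycerolipid synthesis, were higher by 4.03 and 3.93, although Gpam was well above background on only 2 other arrays. Elovl6, a fatty acid elongase, was higher by 3.79. Scd1, the stearoyl-CoA desaturase, was higher by 2.37 and Me1, the cytosolic malic enzyme, by 2.16. Acaca, acetyl-CoA carboxylase, was higher by 4.72 at its brightest probe, but its other 2 probes differed by 0.18 and 0.04 and were not called. Fasn, fatty acid synthase, was saturated on all 7 titled arrays and differed by -0.36 without a call, whereas its other probe was higher by 3.56.

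Sterol synthesis genes were higher for 12 of 17 members and lower for 1, with 10 higher in the shared range. Among them Lss, lanosterol synthase, well above background on 5 other arrays, was higher by 2.75, Dhcr7 by 2.73 and Fdps by 2.28. Fdft1, squalene synthase, was higher by 2.65 at its brightest probe and differed by -1.41, a call of lower, at another.

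Triglyceride storage genes were higher for 9 of 15 members and lower for none, at a median of 1.52, with 6 higher in the shared range. Lpin1, a phosphatidate phosphatase, ran from 3.47 through 4.22 to 5.08 on titled arrays and from -0.57 through 0.77 to 2.16 on other arrays. All titled arrays were above all others, by 3.43 (SE 0.38, adjusted p = 9.92e-07, limma). Plin5, a lipid droplet protein, G0s2, an inhibitor of lipolysis, and Aqp7, a glycerol channel, were higher by 3.27, 2.99 and 2.96.

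Fatty acid oxidation genes were higher for 11 of 17 members and respiratory chain genes for 11 of 23, with none lower in either list. Their medians were 1.98 and 1.35. Ppara, a receptor that drives oxidation genes, ran from 3.09 through 4.58 to 4.97 on titled arrays and from -2.22 through 1.13 to 3.03 on other arrays, a difference of 3.47 without overlap. Slc25a20, the carnitine carrier, was higher by 3.59, and Hadha, of the trifunctional protein, by 3.12. Sdha and Sdhb, subunits of complex II, were higher by 2.97 and 2.76.

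Limited to the shared range, 5 of 17 oxidation genes and 2 of 23 respiratory chain genes were higher, where 17.4% of all genes were. The respiratory chain count lay below that share. Atp5b differed by -0.88 at its brightest probe without a call and was higher by 2.26 and 3.18 at its other probes. Cycs, cytochrome c, differed by 0.86 there and was higher by 2.63 and 2.07 elsewhere.

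Among the 12 genes with the largest rise, P2rx5, an ATP-gated ion channel, stood first. It ran from 0.60 through 2.31 to 3.28 on titled arrays and from -5.39 through -3.59 to -2.07 on other arrays, of which 3 were well above background. No values overlapped, and the difference was 6.05 (SE 0.40, adjusted p = 2.65e-09, limma), or 66.2-fold. Others of the 12 were the fat genes Acaca, Mlxipl and Plin1 and the brown fat gene Otop1, a proton channel, at 4.50.

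The rest were Lctl of the lactase-like family (4.89), Kng1, kininogen (4.77), Tmem45b (4.74), Acad10 of the acyl-CoA dehydrogenase family (4.60), Ces3, a carboxylesterase (4.53), Cpn2, a subunit of carboxypeptidase N (4.43), and Entpd4, a nucleotidase (4.42). Kng1 and Cpn2 overlapped between groups and the other 10 did not. Acad10 and Cpn2 were each well above background on 5 other arrays. A second Entpd4 probe differed by -0.43 and was not called.

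Neutrophil genes were lower on titled arrays for all 18 members tested, at a median of -4.39. The mean level of the list ran from -5.16 through -5.06 to -2.91 on titled arrays and from -2.41 through 0.04 to 1.82 on other arrays, without overlap. S100a8, a member of the calprotectin pair that fills the neutrophil cytosol, ran from -3.70 through -1.96 to 0.95 on titled arrays and from -0.71 through 4.31 to 6.86 on other arrays. The ranges overlapped at their ends, and the gene was lower by a fitted 41.2-fold (log2 -5.36, SE 0.85, adjusted p = 3.69e-05, limma). Its partner S100a9 ran from -0.13 through 1.24 to 3.91 against 3.45 through 7.89 to 10.13, a log2 difference of -5.48.

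Granule and secreted proteins followed, with Ngp at -6.10, Retnlg at -6.08, lactoferrin (Ltf) at -5.46 and cathelicidin (Camp) at -4.90. Ngp was well above background on 1 titled array only. For 4 of the 18 genes every titled array lay below every other array, as was so for 1221 (6.04%) of all genes by 1 probe. Limited to the shared range, 4 of the 18 were lower, namely S100a8, S100a9, Retnlg and Clec4d, and most titled values of the list lay under the floor of that range. In Weeks 12 and 15 alone, where titled and other arrays shared a scan date, 12 of the 18 were lower, against 11.8% of all probes.

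The promoters of the calprotectin pair are shown because both genes were measured on all 20 arrays and hold different myeloid-type matches (RefSeq, GRCm38.p6, 250 bases upstream, written along the gene). S100a8 lies at chr3:90668821-90669070 on the plus strand and S100a9 at chr3:90695722-90695971 on the minus strand. Capitals mark GAGGAAGT, a PU.1-type motif, which stands reversed as ACTTCCTC in S100a8, and TTGCNNAA in S100a9, both searched on both strands. Of 17 neutrophil genes with a RefSeq promoter, 6 held the PU.1-type motif (35.3%, against 2.44% of all 27025) and 7 the C/EBP-type motif (41.2%, against 9.55%). These motifs were chosen after matches had been seen.
S100a8: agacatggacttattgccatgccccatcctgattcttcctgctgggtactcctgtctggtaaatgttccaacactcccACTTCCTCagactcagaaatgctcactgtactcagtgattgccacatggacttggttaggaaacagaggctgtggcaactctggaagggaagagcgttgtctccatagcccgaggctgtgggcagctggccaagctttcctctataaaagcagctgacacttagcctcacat
S100a9: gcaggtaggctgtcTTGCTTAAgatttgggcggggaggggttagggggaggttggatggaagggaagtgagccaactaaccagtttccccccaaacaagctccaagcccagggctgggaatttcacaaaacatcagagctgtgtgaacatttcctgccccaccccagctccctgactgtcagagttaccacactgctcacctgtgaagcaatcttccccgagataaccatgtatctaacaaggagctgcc

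Inflammatory cytokine genes were lower for 7 of 9 members tested, at a median of -3.54, and 5 of the list's 14 members did not pass the filter on dim probes. Il6 ran from -8.72 through -6.80 to -4.11 on titled arrays, 1 of which was well above background, and from -0.16 through 1.89 to 5.23 on other arrays, all 13 of which were. The groups did not overlap, and the log2 difference was -8.62 (SE 0.73, adjusted p = 4.06e-08, limma). Il1b, the interleukin made by activated macrophages and neutrophils, ran from -5.22 through -4.27 to -1.67 against -1.18 through 3.17 to 5.06. It was measured on all 20 arrays, did not overlap, and differed by -6.47 (SE 0.69, adjusted p = 5.74e-07, limma).

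Osm, oncostatin M, which was well above background on 4 titled arrays, and Tnf differed by -4.75 and -3.80. Tnfaip3 and Nfkbiz, which are induced by NF-kB, differed by -3.54 and -2.85, and Il18 by -1.97. Nlrp3 and Il1rn were not called. Of the 9 genes, 5 had every titled array below every other array, as had 6.04% of all genes by 1 probe. Of the chemokine genes, 13 of 16 were lower and none higher, at a median of -2.76, with 6 lower in the shared range. The neutrophil attractants Cxcl2, well above background on 1 titled array, and Cxcl1, on 6, differed by -7.98 and -5.97, and the macrophage inflammatory proteins Ccl3 and Ccl4 by -5.37 and -5.19. Cxcl12, made by stromal cells, differed by -0.22 and Cxcl9 by 0.38, and neither was called.

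Macrophage genes moved less, with 6 of 16 lower and none higher, at a median of -1.15. That share stood near the 28.5% of all genes that were lower. In the shared range 3 of the 16 were lower, where 5.69% of all genes were. The mean level of the list ran from -1.10 through -0.71 to 0.16 on titled arrays and from -1.08 through 0.88 to 2.66 on other arrays, so the groups overlapped over most of the titled range. Emr1, the F4/80 antigen, ran from 0.33 through 0.55 to 1.5 on titled arrays and from -1.42 through 1.69 to 3.71 on other arrays. The titled values fell inside the range of the others, and the difference of -0.82 was not called (SE 0.51, adjusted p = 0.18, limma).

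Csf1r, the receptor for the macrophage growth factor, differed by -0.43 and Cd68, a lysosomal protein, by -1.22 (adjusted p = 0.065, limma), and neither was called. The lower members were Itgam, CD11b, which neutrophils also carry (-2.76), Cd14 (-1.65), Fcgr1 (-1.61), C1qb (-1.28), Mrc1 (-1.20) and C1qa (-1.12). Emr1 and Csf1r were well above background on every titled array. Without the 3 arrays with over 10% of spots flagged, 10 of the 16 were lower, where 31.8% of all probes were, and within Weeks 12 and 15 alone 1 was, where 11.8% were.

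Alternative activation genes were lower for 8 of 9 members tested, at a median of -1.71, while 3 of the 12 in the list did not pass the filter. Il10 ran from -7.85 through -6.51 to -5.93 on titled arrays, 3 of them well above background, and from -4.20 through -3.03 to 0.72 on other arrays. The groups did not overlap and differed by -4.03. Chi3l3 and Retnla, secreted by alternatively activated macrophages, differed by -2.62 and -2.35, and Il4ra, the interleukin 4 receptor, by -2.02. Stat6, which carries that receptor's signal, differed by 0.01. Within Weeks 12 and 15 alone, 3 of the 9 were lower, where 11.8% of all probes were. In the shared range 4 of the 9 were lower, where 5.69% of all genes were.

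Lymphocyte genes were lower as well, 10 of 12 for T cells, 9 of 10 for B cells and 8 of 8 for natural killer and cytotoxic cells, with medians of -2.60, -2.67 and -3.13. Gzmb, granzyme B of cytotoxic granules, ran from -7.84 through -5.87 to -3.09 on titled arrays and from -2.93 through -1.22 to 1.65 on other arrays, a difference of -4.46 without overlap. The detection limits of titled arrays ran from -6.99 to -5.59. The lowest titled Gzmb value lay under them and the median among them, so the size is not settled. Cd3d, a T cell receptor chain, and Lat, its adaptor, differed by -3.25 and -3.80, and Bank1, a B cell adaptor, by -3.15. In the shared range 2 T cell, 2 B cell and 1 natural killer gene were lower, and most of these genes lay under its floor in both groups.

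Of the dendritic and MHC class II genes, 8 of 13 were lower, at a median of -1.32, and none in the shared range. Cd74, the invariant chain, ran from 4.02 through 5.14 to 5.45 on titled arrays and from 3.07 through 6.66 to 7.43 on other arrays, and overlapped. Its difference was -1.32, against -4.87 for Ccr7, the receptor of migrating dendritic cells and naive lymphocytes. Mast cell genes were lower for 5 of 7, with Hdc, which makes histamine, at -2.71, whereas Kit, a growth factor receptor of mast cells and several other cell types, was higher by 2.14. Erythroid genes were lower for 5 of 6, with the red cell anion exchanger Slc4a1 at -3.80 and Alas2 at -3.35, and Tfrc, the transferrin receptor of most growing cells, was higher by 1.70.

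Immediate early genes were lower for 13 of 15 members and higher for none, at a median of -2.21, and 10 stayed lower in the shared range, against 5.69% of all genes. The mean level of the list ran from 0.16 through 0.81 to 2.85 on titled arrays and from 1.96 through 3.96 to 5.59 on other arrays. Fos, a subunit of the AP-1 factor, ran from -4.18 through -2.59 to 0.73 on titled arrays and from 2.43 through 3.94 to 5.97 on other arrays. The groups did not overlap, and the gene was 88.6-fold lower (log2 -6.47, SE 0.63, adjusted p = 1.96e-07, limma). In the shared range it differed by -4.19.

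Atf3, a stress-induced factor, ran from -2.15 through 0.21 to 1.87 on titled arrays and from 2.12 through 3.78 to 6.77 on other arrays, a difference of -4.46 without overlap. Zfp36, which degrades cytokine messages, ran from -0.69 through -0.43 to 1.37 against 1.88 through 3.73 to 6.32, a difference of -4.21 without overlap. Fos, Atf3, Zfp36 and Fosb were the 4 of the 15 members whose titled arrays all lay below the others. Of all genes by 1 probe, 6.04% did so. Fosb, Egr1, Egr2, Junb and Nr4a1 differed by -4.24, -3.92, -3.69, -3.64 and -2.21. Jun differed by -1.32 (adjusted p = 0.053, limma) and Jund by -0.36, and neither was called. Klf2 differed by -1.70 and was called lower, but its other probe differed by 1.00 without a call.

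The promoters of Fos and Atf3 are shown because both genes separated the groups on all 20 arrays (RefSeq, GRCm38.p6, 250 bases upstream, written along the gene). Fos lies at chr12:85473640-85473889 on the plus strand and Atf3 at chr1:191183334-191183583 on the minus strand. Capitals mark TGACG, the core of the cyclic AMP response element, searched on both strands and reversed as CGTCA in Atf3. Of 13 immediate early genes with a RefSeq promoter, 8 held it (61.5%, against 17.9% of all 27025), namely Fos, Fosb, Junb, Atf3, Dusp1, Nr4a1, Klf2 and Klf4. This motif too was chosen after matches had been seen.
Fos: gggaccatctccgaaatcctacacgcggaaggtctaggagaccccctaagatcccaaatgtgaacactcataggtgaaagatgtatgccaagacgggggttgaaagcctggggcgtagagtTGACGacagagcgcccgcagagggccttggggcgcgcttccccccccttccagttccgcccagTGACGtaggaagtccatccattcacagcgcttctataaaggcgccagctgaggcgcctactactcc
Atf3: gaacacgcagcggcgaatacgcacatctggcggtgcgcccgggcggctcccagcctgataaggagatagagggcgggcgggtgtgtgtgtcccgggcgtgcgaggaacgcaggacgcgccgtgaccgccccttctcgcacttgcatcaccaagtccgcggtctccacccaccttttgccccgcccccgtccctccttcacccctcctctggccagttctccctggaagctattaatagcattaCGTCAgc

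Smooth muscle and pericyte genes were divided. The contractile genes Cnn1, Tagln, Myh11 and Acta2 were lower, and the other 6 members, Pdgfrb, Rgs5, Kcnj8, Cspg4, Des and Abcc9, were not called. Tagln, transgelin, ran from 2.26 through 2.55 to 3.47 on titled arrays and from 3.91 through 6.28 to 7.94 on other arrays, lower by 13.3-fold without overlap (log2 -3.74, SE 0.42, adjusted p = 9.02e-07, limma). Cnn1, calponin, ran from -3.18 through -0.54 to 0.33 against 1.46 through 3.80 to 5.57, a difference of -4.61 without overlap.

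Myh11, smooth muscle myosin, differed by -3.17. Acta2, smooth muscle actin, differed by -2.87 and by -4.01 at a second probe, while another probe differed by -0.33 without a call. All 4 contractile genes stayed lower in the shared range. The pericyte genes Rgs5, Kcnj8 and Abcc9 had positive differences, as did Cspg4 and Des, and Pdgfrb differed by -0.53.

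Endothelial genes were lower for 5 of 14 and fibroblast and matrix genes for 6 of 17, at medians of -0.93 and -0.79. These shares, 35.7% and 35.3%, stood near the 28.5% of all genes that were lower. In the shared range 2 genes of each list were lower, where 5.69% of all genes were. Vwf, von Willebrand factor, was the largest of the first list, running from 0.69 through 1.21 to 2.36 on titled arrays and from 2.52 through 4.40 to 6.17 on other arrays, a difference of -3.05 without overlap. Pecam1 differed by -1.08, and Kdr, a VEGF receptor, by 0.55 without a call. Pi16, a marker of adventitial fibroblasts, and Col1a1 differed by -2.43 and -1.51. Without the 3 arrays with over 10% of spots flagged, 9 genes of each list were lower, against 31.8% of all probes, and within Weeks 12 and 15 alone 3 endothelial and 2 fibroblast genes were, against 11.8%.

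Of the Schwann cell and neural genes, 7 of 8 were lower. Mbp, a myelin protein, differed by -3.34 at its brightest probe and by 1.81, higher, at another, and S100b, which fat cells also make, was higher by 1.18. Mesothelial genes were mostly too dim, with 3 of 10 tested and 2 lower. Skeletal muscle genes had a median of 1.43, but Casq1 (2.40) was the only one of 14 called, and 8 were higher within Weeks 12 and 15 alone, where 15.8% of all probes were.

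Interferon response genes were lower for 9 of 15, at a median of -1.37, with Rsad2, viperin, at -2.46 and Mx2 at -3.20. Cell cycle genes were lower for 5 of 15 (33.3%, near the 28.5% of all genes), at a median of -0.61 that turned to 0.10 with quantile normalization. In the shared range 2 of the 15 were lower, where 5.69% of all genes were. Bub1, a mitotic checkpoint kinase, ran from -1.59 through -0.73 to 0.38 on titled arrays and from -1.50 through 3.30 to 5.65 on other arrays, a difference of -3.54 with overlap. Mki67 differed by -1.99 at 1 probe and was not called at another. Of the 4 sex linked genes tested, Eif2s3y was higher by 1.54 and the others were not called.

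The 12 largest falls included Il6 and Cxcl2 together with Irg1, the itaconate-making enzyme of activated macrophages, at -8.29. Il6 and Cxcl2 were well above background on 1 titled array each and Irg1 on 2, so these sizes rest on titled values that mostly could not be told from background. Fgf2, a fibroblast growth factor, ran from -5.35 through -4.76 to -3.38 on titled arrays and from 0.47 through 2.38 to 4.02 on other arrays. It was well above background on all 7 titled arrays and did not overlap, at a difference of -7.22 (SE 0.43, adjusted p = 6.82e-10, limma). The others were Dmrtb1 (-7.82), the T cell receptor segment Trav8d-1 (-7.52), Fpr-rs6, a formyl peptide receptor relative (-7.41), Zc3h3 (-7.18), Tgm5, a transglutaminase (-7.17), Rph3al (-7.10) and Insc (-7.09), each well above background on 6 or 7 titled arrays.

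Ldlrad2, also among the 12, was not well above background on any titled array and was so on 8 other arrays. It was 45.2-fold lower on titled arrays when titled values under the detection limit were raised to it. In the shared range it differed by -0.79 and was not called (adjusted p = 0.11, limma). The limit was the lowest signal that could be told from background on each titled array. Values of other arrays were used as measured, also where not well above background, so 45.2 is not a strict lower bound. Of the probes called lower, 42 were likewise not well above background on any titled array and 21 were saturated on all of them, and 14 of those called higher were saturated on all titled arrays.

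Receptor genes of sensory neurons also stood among the falls. Of 1433 olfactory and vomeronasal receptor probes, a group chosen after its values had been seen, 378 passed the filter, which other arrays alone could meet. Of these 378, 287 were lower (75.9%, against 26.3% of all probes) and 1 higher, at a median of -2.16. Brightness moved with the title in the same arrays, and its part in these falls was not tested. Of genes with further probes, 56.0% of the further probes of higher genes were also higher and 4.55% lower. For lower genes 64.6% were also lower and 3.81% higher. Probes called lower had a median GC content of 45%, against 43.3% for those called higher and 41.7% for those not called.

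Within single scan dates, the list differences kept their direction for 26 of 27 lists at Week 12, 26 at Week 15 and 25 at Week 18. That direction was read from the medians over 20 arrays, which include the arrays of these dates. At Week 18 the date held 1 titled and 2 other arrays, since HF20 and HF75 were scanned on another date. The titled arrays of Week 9 were scanned on another date than the other 3 of that week, so title and scan date cannot be told apart there. General adipocyte levels were higher on titled arrays by 2.15 at Week 12, 2.77 at Week 15 and 1.56 at Week 18. Immediate early levels differed by -3.98, -3.49 and -1.62 and neutrophil levels by -3.56, -3.15 and -4.77 at these weeks. Macrophage levels differed by -1.62, -0.24 and -0.69.

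On the slide that held both HF20 and HF75 of Week 12, 26 of 27 lists kept the direction of the 20-array medians, which include these arrays too. On the slide with HF20 and HF75 of Week 15, where HF20 had 71.4% of spots flagged, 23 did.

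The title difference varied between weeks for 655 of 27688 probes (2.37%, interaction F-test, limma adjusted p under 0.05). Without Week 18, whose single titled array was LFC, 0 probes did, in a fit with 5 arrays fewer. The LFC array of Week 18 had a replicate-spot SD of 0.671 on the log2 scale, the highest of the 20.

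At 2 earlier times 1 titled array and 1 other array existed, on different diets, so their differences carry no test. The arrays of each pair also lay on different slides and were scanned on different dates. At Day 6 the 75th percentiles were 124 on the titled LFC array and 136 on the HFC array. The titled array was the less sensitive, with 45.5% of spots well above background against 60.3% and a detection limit of -3.11 against -4.22. The titled array was over 2-fold higher for 12 of 14 general adipocyte and 13 of 16 lipogenic genes, where 15.4% of all genes were. It was over 2-fold lower for 15 of 18 neutrophil, 8 of 8 natural killer, 9 of 12 T cell and 7 of 10 B cell genes, where 15.2% of all genes were. Of these lower genes, 8, 3, 4 and 5 in turn were not well above background on the titled array, so that their sizes are not settled.

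Adipoq stood at 4.31 on the titled array of Day 6 and 1.84 on the other, and Fasn at 7.85 and 4.67. S100a8 stood at 0.79 and 3.24, and Gzmb at -1.70 and 1.79. Immediate early, smooth muscle, Schwann cell, endothelial, interferon response and mesothelial genes behaved otherwise. The Schwann cell, endothelial, interferon response and mesothelial medians were 0.72, 0.35, 0.26 and 0.31, where those of the later weeks were negative. Fos stood at 4.92 and 5.59, with 1 of 15 immediate early genes over 2-fold higher and 1 lower, and 8 of 10 smooth muscle genes were over 2-fold higher.

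At Day 1 the titled HFC array had a 75th percentile of 468 against 130 for LFC. It showed neither the higher fat cell genes nor the lower neutrophil and immediate early genes of the later weeks. None of the 14 general adipocyte genes was over 2-fold higher and 4 were lower, and 9 of 16 lipogenic genes were lower, where 10.1% of all genes were. Macrophage genes were lower for 12 of 16 and skeletal muscle genes for 13 of 14. Immediate early genes were over 2-fold higher for 11 of 15, where 21.8% of all genes were, with Fos at 6.11 on the titled array and 3.52 on the other and Il6 at 2.89 and -1.01. Neutrophil genes were over 2-fold higher for 6 of 18 and lower for 1. The titled array of Day 1 thus lacked the fat cell, neutrophil and immediate early differences of the later weeks. Macrophage genes were lower as in those weeks, and 5 of 6 erythroid, 5 of 8 Schwann cell and 7 of 17 fibroblast genes were over 2-fold lower too. Diet, brightness and scan date also differed within that pair, so the title cannot be told apart from them.

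**Figure D4:**
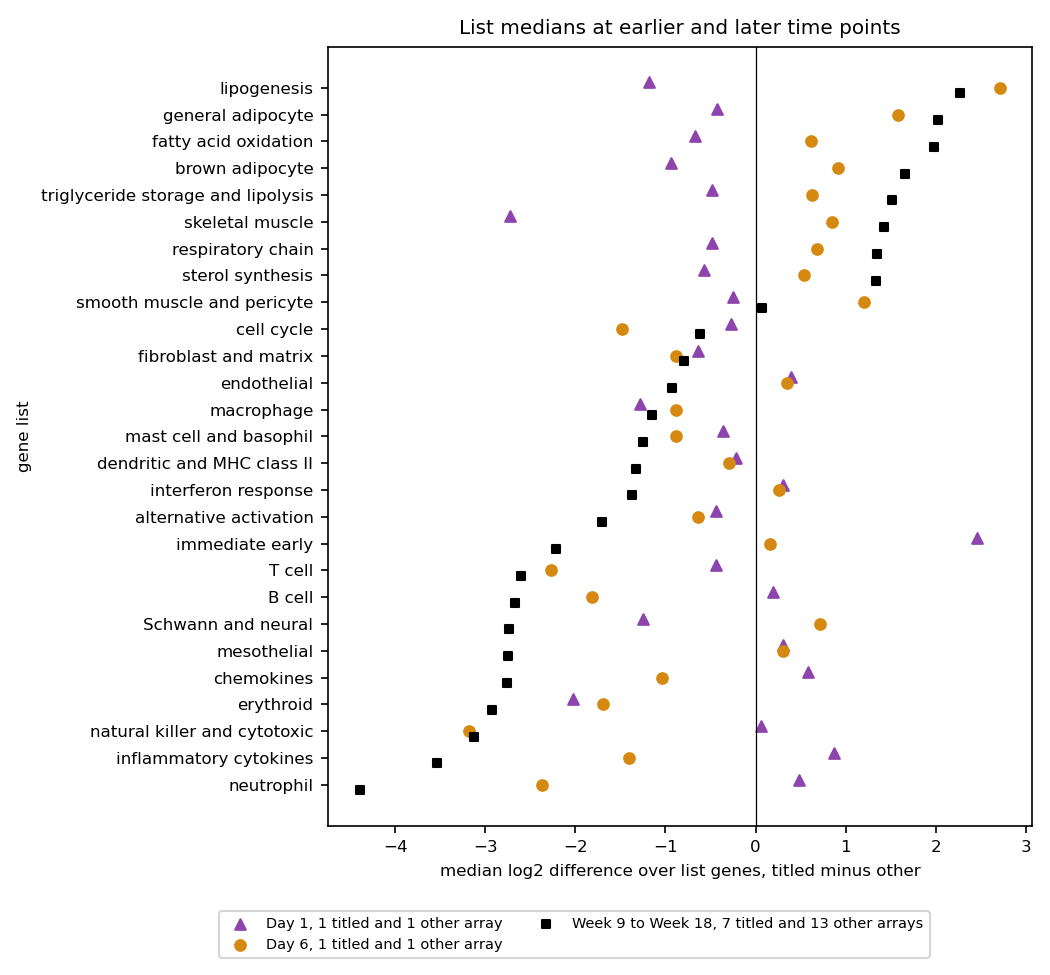
Median log2 difference, titled minus other, of gene lists (rows) for the single pairs of Day 1 and Day 6 and for the 20 arrays of Weeks 9 to 18. General adipocyte genes lie at -0.43 at Day 1, 1.58 at Day 6 and 2.02 at the later weeks, and immediate early genes at 2.46, 0.16 and -2.21.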

How the data were processed

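Single-colour (Cy3) Agilent arrays were analysed from the scanner output the authors deposited, with 40628 probes for 29411 gene symbols. Per the file headers, the processed signal is an intensity, background-subtracted by Feature Extraction 10.5.1.1, while the submitters' processing notes name version 9.1. Outlier-flagged and control spots were left out, replicate spots averaged, and the log2 intensity centred on the 75th percentile of each array. A probe was kept if 7 or more of the 20 arrays found it well above background. Titled arrays (7) and others (13) were compared with limma 3.58.1 (R 4.3.3, statmod 1.5.0), week as a fixed block, two-sided moderated tests and Benjamini-Hochberg adjustment at 0.05 over all probes. The fit was tested on simulated data. Some list members counted in the totals are not reported here by name. A gene was read from the probe with the highest mean, and the 12 largest rises and falls with 1 sign in all 4 weeks were named, beside list members. Members and lists were chosen with earlier results of these data known. Brightness limits the precision of dim and saturated probes. The probe SE had a median of 0.43 (log2). Alternatives covered scaling, background (normexp, offset 50), filters, blocks, array weights and leaving out arrays or weeks. Tables and figures used Python 3.11.15, numpy 2.4.6, pandas 2.3.3 and matplotlib 3.10.9, and promoters came from RefSeq (GRCm38.p6).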

Additional observations from a re-analysis of the deposited data

Results flagged for a closer look

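Of 51 groups of list levels and named genes tested for 1 array far from the rest, 12 held such an array on the titled side. Chance gives about 1 in 20 for a single group. All groups were read from the same 7 titled arrays, so the 12 are not separate findings, and most came from LFC Week 18. LFC Week 18 stood apart for the triglyceride storage and lipolysis list (level 4.63), the T cell (-3.27), B cell (-2.95), natural killer (-3.07) and cell cycle (-1.15) lists, and for Plin1 (9.68), Dmrtb1 (-6.99) and Trav8d-1 (-5.72). HF5 Week 15 stood apart for the neutrophil list (-2.91) and Cxcl2 (-5.28). HF5 Week 9 did so for the skeletal muscle list (-3.90), and LFC Week 12 for Cpn2 (0.90).

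The title difference varied between weeks by the interaction F-test (limma, adjusted over all probes) for 6 of the 374 list and named genes. For Acadl (adjusted p = 0.0254) the titled minus other difference was 1.46, 3.48, 4.49 and -4.43 at Weeks 9, 12, 15 and 18. For Gyk (0.00193) it was 1.02, 3.38, 3.99 and -2.86, and for Sdhc (0.00263) 0.97, 3.27, 2.98 and -4.57. For Cox6c (0.00853) it was -0.45, 1.08, 2.06 and -6.28, and for Tfrc (0.0286) 2.91, 3.08, 1.72 and -1.86. For Agpat2 (0.035) it was 1.68, 6.00, 4.03 and 4.57, with Week 9 lowest. The Week 18 value rests on 1 titled array, LFC, and without that week 0 probes passed.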

How the results depend on the processing

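The count of probes that differed was 26675 without a filter, 2493 with probes well above background on all 20 arrays, and 7707 in the weeks whose arrays shared a scan date. It was 5959 in the range all 20 arrays measured and 7201 in that of the 17 with under 10% of spots flagged. Higher probes numbered 11403 with median scaling, 1745 with the 20-array filter and 4405 in the weeks sharing a date. Lower probes numbered 3273 with quantile normalization, 3607 with median scaling, 14003 with normexp, 19590 without a filter, 748 with the 20-array filter, 4578 with scan date as a fixed block, 3302 in the weeks sharing a date, and 1311 and 2097 in the 2 limited ranges. Without each array in turn, 12966 (without LFC Week 12) to 15263 (without HF20 Week 15) differed, 6163 to 7276 were higher and 6563 to 8192 lower. Probes varying between weeks numbered 364 with quantile normalization, 1997 with normexp, 3116 without a filter, 412 with flagged spots kept, 1805 without the arrays over 10% flagged, and 0 without Week 18. The split of calls moved with the scaling. Of the calls, 70.9% were higher with quantile normalization and 78.0% in the range of all 20 arrays. The lists with a median above 0 numbered 8 or 9 of 27 under the 33 alternatives in which lists were counted. Lists were not counted with median scaling, array weights, or scan date or slide as a block. The cell cycle median reversed to 0.10 with quantile normalization, where the number of lists above 0 was also 9. Of the 24 named genes, only Ldlrad2 lost its call, in the 2 limited ranges. No paired analysis was possible because replicate numbers were given in accession order and pair no arrays. With slide as a random block 15059 probes differed. Dim other arrays limit what falls can show, and saturated titled spots what rises can show.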
